A study of Nicrophorus vespilloides with 24 samples.

Results

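This comparison set females of the burying beetle Nicrophorus vespilloides that had finished caring against mated females that had never been given a carcass, and asks which expression changes were present in the head after care had ended. It rests on 8 of the 24 libraries of the series, chosen by their labels: all female libraries of the Post-parenting stage (4) and of the Control stage (4), with the parenting type, biparental or uniparental, as a block. Each stage has 2 biparental and 2 uniparental libraries, each made from a pool of 10 females aged 21 days after eclosion. Control females were kept with a male and mated, but received no carcass. Post-caring females bred on a mouse carcass, stayed several days with larvae and were collected after deserting them. For the uniparental type the mate was taken away before the larvae were raised, and each type had its own controls. Females of both stages were housed singly before collection. Post-caring females were paired at a younger age, so that all were equally old when collected, and carcass feeding, egg laying, time since pairing and the end of care therefore cannot be told apart. The labels give a wood in Cornwall as the origin of the beetles. The labels name the tissue as brains, whereas the study's methods describe whole heads with mostly brain and some fat body and connective tissue.

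Burying beetle parents prepare a small vertebrate carcass, guard it against microbes with oral and anal secretions, and feed regurgitated, predigested food to begging larvae. Care ends when the parents leave, after which a female may breed again. In insects the fat body makes yolk proteins, storage proteins and most antimicrobial peptides, odorant-binding proteins carry odorants in the fluid around sensory neurons, and ryanodine receptors release calcium from the internal stores of muscle and neurons. A locus in these data is an assembled contig, or a group of overlapping contigs, whose best match is to an arthropod sequence. A name given below is that of the match and not a verified identity, and several contigs can be pieces of one gene or close relatives that share reads.

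The 8 libraries held between 15024559 and 23129177 counts. The 10 contigs that match vitellogenin, the yolk protein precursor, took 21.9% to 39.4% of the counts of control libraries and 17.3% to 21.8% of those of post-caring libraries, against 5.44% to 9.17% in the 4 caring female libraries and at most 0.704% in the 12 male libraries. Levels are given as CPM, counts brought to a common library total after TMM scaling, which assumes that most loci do not change. The scaling factors were 0.67 to 0.98 in controls and 0.94 to 1.21 in post-caring libraries, and removal of the yolk contigs before scaling, an alternative chosen after seeing the data, left the 13 loci described below past the threshold. The libraries of a pair differed beyond counting noise in every group. The biparental post-caring pair had the largest chi-square per degree of freedom of the 12 groups (72.5), and 8.82% of its loci differed more than 2-fold between the 2 libraries, against 3.13% in the uniparental post-caring pair. Defining neuronal markers could not be checked, because 10537 of the 11403 loci carry no name in the tables used. Contigs of muscle, photoreceptors and fat body were detected in all groups, and in pooled heads a change in the number of such cells cannot be told apart from a change in RNA per cell.

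The test found 13 loci with altered expression in post-caring females among 9648 (0.135%), of which 9 were higher (0.0933%) and 4 lower (0.0415%) than in controls. The loci that rose include an antimicrobial peptide, an odorant-binding protein and a lipase, and those that fell include a kainate-type glutamate receptor and 2 ryanodine receptor contigs. The criterion was a Benjamini-Hochberg adjusted p-value under 0.05 in edgeR's quasi-likelihood test, with the biparental and uniparental changes averaged. Without adjustment, 1473 loci had a p-value under 0.05, 679 higher (7.04%) and 794 lower (8.23%), and the median log2 fold change over all loci was 0.0023. The last loci inside the threshold were Locus_18265 and Locus_34199 (adjusted p = 0.0395 for both) and the first ones outside it were Locus_54028, with a log2 fold change of 0.79 ± 0.15 (SE), and Locus_C869414, with -0.85 ± 0.16 (adjusted p = 0.0529 for both). At all 13 loci both post-caring libraries lay on the same side of both controls within the biparental and within the uniparental type, as was so at 11.1% of all loci. The 4 post-caring and the 4 control libraries did not overlap at 7 of the 13, against 2.38% of all loci. These shares describe the loci that the test selected and are no test of them.

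**Figure D1:**
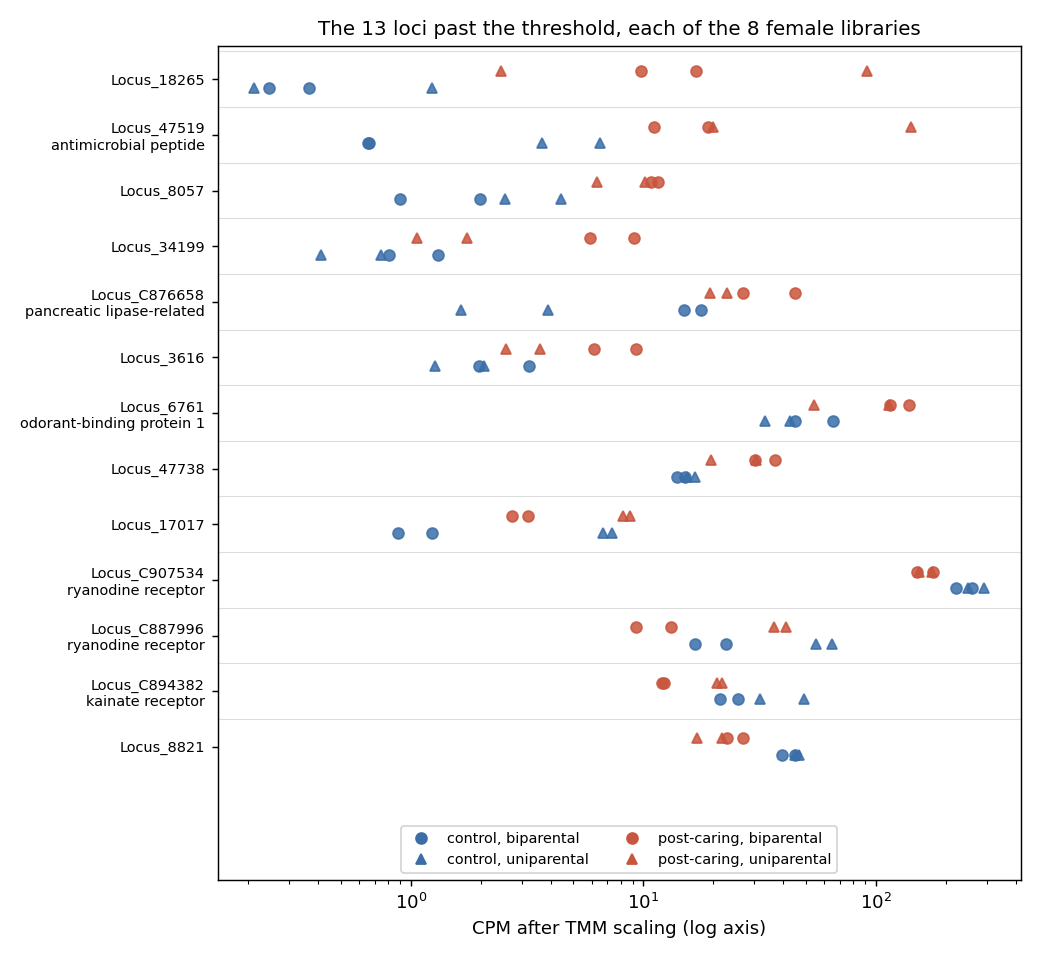
Level of the 13 differentially expressed loci in each of the 8 female libraries. The horizontal axis is CPM on a log scale; each row is a locus, with control libraries in blue below and post-caring libraries in red above, circles for biparental and triangles for uniparental females. At every locus the red symbols of a shape lie on one side of the blue symbols of the same shape, and the 2 top rows show the widest spread among post-caring libraries.

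The 2 largest rises were at low-abundance loci, and they differed most between libraries. Locus_47519, whose match is a hypothetical antimicrobial peptide of the maize weevil Sitophilus zeamais, had 0.661 and 0.656 CPM in the biparental and 3.66 and 6.54 in the uniparental controls. In post-caring females it had 11.15 and 18.97 CPM in the biparental and 141 and 20.0 in the uniparental libraries. All post-caring libraries lay above all controls, with the first uniparental library far above the rest. The log2 fold change was 4.24 ± 0.75, an 18.96-fold rise (adjusted p = 0.0395). Antimicrobial peptides are small proteins that insects secrete against bacteria and fungi. Locus_18265, whose match is a hypothetical protein of the flour beetle Tribolium castaneum, had 0.367, 0.246, 0.212 and 1.24 CPM in the same order of controls. It had 16.9 and 9.77 CPM in the biparental and 91.2 and 2.44 in the uniparental post-caring libraries. The groups again did not overlap, and the same uniparental library was the highest. Its log2 fold change was 5.73 ± 1.06 (adjusted p = 0.0395). Without uniparental post-caring replicate 1 the changes were 3.24 at Locus_47519 and 3.60 at Locus_18265.

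An odorant-binding protein and a lipase also rose. Locus_6761, a match to the putative odorant-binding protein 1 of T. castaneum, had 44.8 and 65.6 CPM in biparental and 33.3 and 42.8 in uniparental controls, and 139, 115, 54.4 and 114 in the post-caring libraries. The first uniparental post-caring library lay within the range of the controls and the other 3 lay above it. Its log2 fold change was 1.18 ± 0.21, 2.26-fold (adjusted p = 0.0395), and it was nearly the same in biparental (1.20 ± 0.30) and uniparental females (1.15 ± 0.30). A second contig with the same match, Locus_55249, had a change of 0.59 ± 0.47 (adjusted p = 0.564), and another, Locus_40943, which carries no description, had -0.08 ± 0.12 (adjusted p = 0.778). Reads could be split between such contigs, so the share of each is uncertain. Locus_C876658, a match to pancreatic lipase-related protein 2 of an ant, belongs to a family of enzymes that split dietary and stored fats. Its level was 17.8 and 14.9 CPM in biparental controls but 1.64 and 3.89 in uniparental controls, and 27.0, 45.1, 19.4 and 23.0 CPM in the post-caring libraries. All post-caring libraries lay above all controls. The log2 fold change was 2.04 ± 0.38 (adjusted p = 0.0395), with 1.14 ± 0.49 in biparental and 2.95 ± 0.56 in uniparental females.

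The other 5 loci that rose have no informative name and are given here after their values were seen. Locus_47738 shares its best match with 2 contigs described as a putative lysosomal acid lipase, an enzyme of lipid breakdown. It had between 13.9 and 16.7 CPM in the 4 controls and 30.3, 37.0, 30.6 and 19.7 CPM in the post-caring libraries, without overlap, and its log2 fold change was 0.93 ± 0.17 (adjusted p = 0.0395). The described contigs of the same match, Locus_10994 and Locus_54728, changed by 0.18 ± 0.37 and 0.32 ± 0.49 on the log2 scale, and Locus_44638, which also has that match, by -0.18 ± 0.17, none of them past the threshold. Locus_8057, a match to a hypothetical protein of T. castaneum, had 1.98, 0.902, 2.54 and 4.42 CPM in controls and 11.6, 10.8, 10.1 and 6.31 in post-caring libraries, which again did not overlap. Its log2 fold change was 2.09 ± 0.34 (adjusted p = 0.0285). Locus_34199, a match to a T. castaneum protein without a gene name, rose by 2.05 ± 0.38, Locus_3616 by 1.23 ± 0.20 (adjusted p = 0.0304) and Locus_17017 by 0.88 ± 0.16. At these 3 loci the post-caring range overlapped the control range across types but not within a type.

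Locus_8821, a match to a hypothetical protein of T. castaneum, had the smallest p-value of the comparison. Its level was 39.7, 44.8, 46.7 and 45.0 CPM in controls and 26.8, 22.9, 17.0 and 21.7 in post-caring libraries. The groups did not overlap, and the log2 fold change was -1.004 ± 0.13 (adjusted p = 0.0106). Locus_C894382 matches an ionotropic kainate receptor, a glutamate-gated ion channel that in Drosophila acts at synapses. Its level fell from 21.4 and 25.6 CPM in biparental controls to 12.1 and 12.3, and from 31.8 and 49.1 CPM in uniparental controls to 21.9 and 20.8. The uniparental libraries lay above the biparental ones in both stages, and the change was -0.94 ± 0.21 in biparental and -0.92 ± 0.20 in uniparental females on the log2 scale (-0.93 ± 0.14 and adjusted p = 0.0231 for both together). Locus_77596, which has the same match and no description, changed by -0.19 ± 0.26.

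Both ryanodine receptor contigs past the threshold match the receptor of the moth Heliothis virescens. Locus_C907534 had 221, 259, 248 and 292 CPM in controls and 176, 150, 154 and 174 in post-caring libraries, which did not overlap. Its log2 fold change was -0.64 ± 0.10 (adjusted p = 0.0231). Locus_C887996 had 16.7 and 22.6 CPM in biparental and 55.3 and 64.8 in uniparental controls, against 13.2, 9.34, 36.6 and 41.1 CPM after care. Its uniparental libraries lay above the biparental ones in both stages, and the fall was -0.71 ± 0.12 (adjusted p = 0.0395). The 3 further contigs named as ryanodine receptors, Locus_C880922, Locus_C906358 and Locus_C907944, were lower within both types and had changes of -0.98 ± 0.28, -0.82 ± 0.22 and -0.51 ± 0.14, with adjusted p-values of 0.148, 0.135 and 0.135. Whether the 5 contigs are parts of one transcript was not tested.

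Most other muscle contigs had lower values as well, without passing the threshold. Names exist in the tables used only for contigs of the caring gene set, which the study selected on differences between caring beetles and controls, these controls included, so the members of this and of every later list were chosen with the same control libraries and their shares are given beside those of that whole set. Of 49 contigs with names of muscle proteins, which match 26 different accessions, 48 had a change below 0, against 45% of the caring gene set and 49.6% of all loci. Only the 2 ryanodine receptor contigs passed the threshold, but 35 (71.4%) were lower with an unadjusted p-value under 0.05, against 17.2% of the caring gene set and 8.23% of all loci, and the median log2 fold change was -0.55. In caring females 33 of the 49 were lower than in the same controls at an adjusted p-value under 0.05 in edgeR's quasi-likelihood test. So were 273 of the 825 tested contigs of the caring gene set and 896 of all 9648 loci. In 26 of the 49 both post-caring libraries lay below both controls in both types (53.1%, against 13.3% of the caring gene set and 5.74% of all loci). In 12 of the 49 all 4 lay below all 4 controls, against 44 of the 825 tested contigs of the caring gene set and 1.27% of all loci. Named after their values were seen, paramyosin (Locus_C887332), a core protein of thick filaments, changed by -0.73 ± 0.15 (adjusted p = 0.0667), and tropomyosin 1 (Locus_C889332), which covers the myosin sites of actin, by -0.78 ± 0.20 (adjusted p = 0.134). The most abundant contig of the list, a myosin heavy chain (Locus_C915460), changed by -0.56 ± 0.21 (adjusted p = 0.232). The single contig above 0 was troponin C 25D (Locus_C857224), a calcium sensor of muscle, at 0.54 ± 0.21 (adjusted p = 0.246). Contigs of one gene are not independent, and 22 of the 49 match the giant protein kettin. The summed level of the list was 70460 and 81060 CPM in biparental and 70920 and 104300 in uniparental controls, 64150 and 59510 CPM in biparental and 43920 and 56290 in uniparental post-caring females. The post-caring sums lay below all controls, and the caring sums were 81430 and 66400 CPM in biparental and 30400 and 34000 in uniparental females. The part of the amount of muscle in the samples in these values, and in the falls of the ryanodine receptor contigs, was not tested. With each of the 8 libraries left out in turn, 43 to 48 muscle contigs stayed below 0 and 24 to 40 were lower with an unadjusted p-value under 0.05, when 4.34% to 14.3% of all loci were. The lowest count of 24 was reached without uniparental post-caring replicate 1. Without biparental post-caring replicate 1, 18 muscle contigs passed the adjusted threshold, in a fit in which 6.8% of all loci did.

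**Figure D2:**
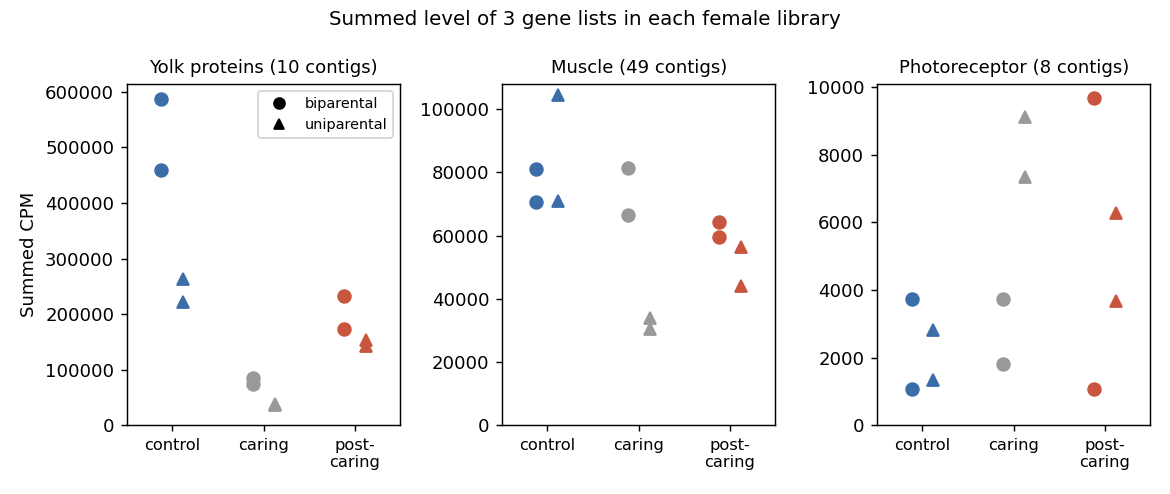
Summed CPM of the contigs of 3 gene lists in each of the 12 female libraries, by stage, with circles for biparental and triangles for uniparental females and all axes starting at 0. Yolk protein sums were 222400 to 586900 CPM in controls and 143700 to 232200 CPM after care, muscle sums of all 4 post-caring libraries lay below all 4 controls, and photoreceptor sums of biparental post-caring females were 1090 and 9672 CPM.

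The count of 13 depended on single libraries and on the tool. A likelihood ratio test on tagwise dispersions gave 167 loci (81 higher, 86 lower), and DESeq2's Wald test gave 157 (69 higher, 88 lower). Both counts included all 13. A fit to the 8 libraries alone gave 0 loci at an adjusted p-value under 0.05 and 1013 at an unadjusted p-value under 0.05, and a fit to the 12 female libraries gave 8, of which 2 were among the 13. Without biparental post-caring replicate 1 the count was 670 (176 higher, 494 lower), all 13 among them, and without uniparental post-caring replicate 2 it was 20. It was 2 without biparental post-caring replicate 2, 1 without uniparental post-caring replicate 1, 9 and 0 without biparental control replicates 1 and 2, and 5 and 0 without uniparental control replicates 1 and 2. Each of the 13 loci remained past the threshold in 1 to 4 of these 8 fits, and the sign of its change was the same in all of them. Its highest adjusted p-value among the 8 was 0.0875 at Locus_8821 and between 0.126 and 0.245 at the other 12.

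Within each type fewer loci passed. In biparental females 0 loci passed the threshold in edgeR's quasi-likelihood test, with 1570 at an unadjusted p-value under 0.05 and a smallest adjusted p-value of 0.083. DESeq2 gave 118 and the likelihood ratio test 103. In uniparental females 2 loci passed (0.0207%), both lower, and 713 lay under 0.05 before adjustment. The likelihood ratio test gave 94 (59 higher, 35 lower) and DESeq2 76 (6 higher, 70 lower). The quasi-likelihood calls were Locus_8821 and Locus_42316, a match to a hypothetical protein of the pine beetle Dendroctonus ponderosae. Locus_42316, which was not among the 13, had 184 and 210 CPM in uniparental controls and 70.2 and 103 after care, against 226 and 243 CPM in biparental controls and 235 and 293 after care. Its uniparental fall of -1.19 ± 0.18 (adjusted p = 0.0273) stood beside a biparental change of 0.17 ± 0.18. Left out one at a time, uniparental post-caring replicate 1 and either uniparental control brought the uniparental count to 0, and without uniparental post-caring replicate 2 it was 2, of which 1 was the same locus. Without biparental post-caring replicate 1 the biparental count was 939.

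The difference between the types was tested as the uniparental change minus the biparental change. It passed at 0 of 9648 loci in edgeR's quasi-likelihood test, where the smallest adjusted p-value was 0.479 and 661 loci lay under 0.05 before adjustment, at 1 in DESeq2 and at 2 in the likelihood ratio test. Without biparental post-caring replicate 1 the count was 163. All 13 loci changed in the same direction in both types, and 3 had an unadjusted p-value under 0.05 for the difference. At Locus_17017 the change was 0.28 ± 0.19 in uniparental and 1.49 ± 0.26 in biparental females (adjusted p = 0.676 for the difference in edgeR). At Locus_8057 it was 1.25 ± 0.44 and 2.93 ± 0.51, and the lipase contig Locus_C876658 had the opposite order (adjusted p = 0.715 for both differences in edgeR). Across all loci, which are not independent replicates, the changes of the types, which share no library, correlated with r = 0.06 (Pearson) and rho = 0.25 (Spearman), and 58.9% had the same sign. Over the 5629 loci with a mean of at least 10 CPM, r was 0.42 and rho 0.30.

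**Figure D3:**
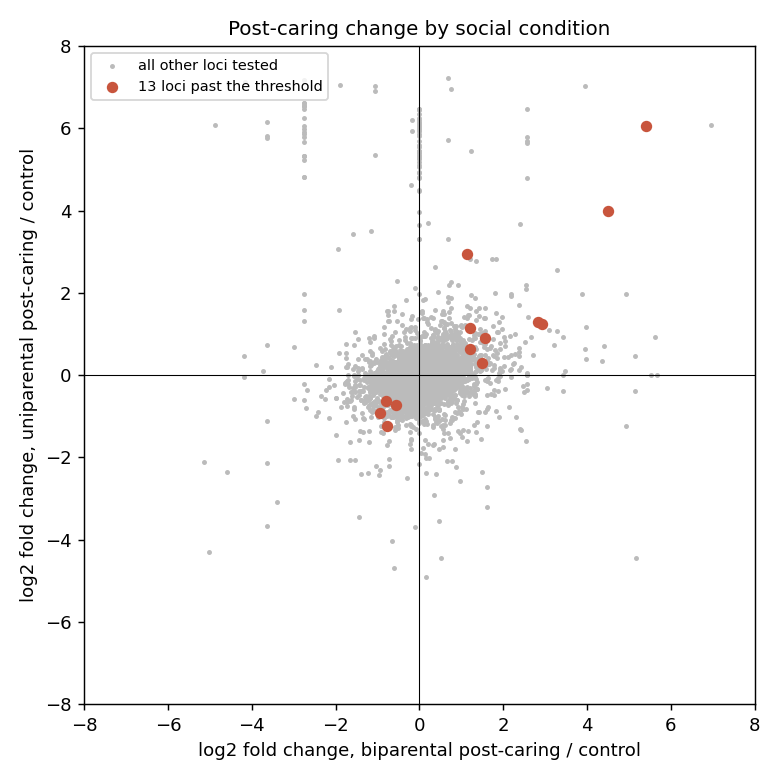
Log2 fold change of biparental (horizontal axis) and uniparental (vertical axis) post-caring females over their controls for all loci tested, with the 13 differentially expressed loci in red and 3 loci outside the plotted range of -8 to 8. All red points lie in the 2 quadrants of equal sign.

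The 13 loci were also measured in caring females. The comparison of caring with control females uses the same 4 control libraries, so the values are set side by side and their likeness is no result. Against controls, 1598 loci (16.6%) were differentially expressed in caring females, with 12 of the 13 among them, and the exception was Locus_47738, with a caring change of 0.39. At the kainate receptor the change was -0.54 in caring and -0.93 in post-caring females, and at Locus_C907534 it was -0.80 and -0.64. For the odorant-binding protein it was 1.97 and 1.18, and for Locus_34199 3.68 and 2.05. Locus_47519 had 1.60 and 3.32 CPM in biparental but 47.2 and 325 in uniparental caring libraries. Locus_18265 had 2.82 and 5.595 CPM in biparental but 33.0 and 201 in uniparental caring libraries. At both loci the biparental post-caring libraries lay above the biparental caring ones, and the uniparental libraries of the 2 stages overlapped. Post-caring females were also tested against caring females directly, which involves no control library but the same post-caring libraries, and 1020 loci differed (10.6%), 610 higher and 410 lower after care. Of the 13, 3 differed. Locus_6761 was lower after care by -0.79 on the log2 scale (adjusted p = 0.021), from 308, 278, 86.3 and 133 CPM in the caring libraries, and Locus_34199 by -1.63 (adjusted p = 0.0013). Locus_8821 was lower after care by -0.44 (adjusted p = 0.045), with 48.2 and 50.1 CPM in biparental and 20.0 and 15.99 CPM in uniparental caring females. In its biparental libraries the caring level lay above the controls, and in its uniparental libraries it lay at the post-caring level. Locus_47738 had 15.1, 17.1, 27.1 and 23.0 CPM in caring libraries, and its rise after care by 0.53 over caring females missed the threshold (adjusted p = 0.052).

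Males share no library with the female comparison. Of the 13 changes, 12 had the same sign in post-caring against control males, where 71.8% of all loci had, and 5 passed the threshold in males, where 91 loci did (0.943%). The 5 were Locus_47519, with a male log2 fold change of 4.76 ± 0.95 (adjusted p = 0.032), the odorant-binding protein Locus_6761, with 1.42 ± 0.21, Locus_47738, with 1.06 ± 0.17 (adjusted p = 0.028 for both), Locus_8057, with 1.89 ± 0.34 (adjusted p = 0.029), and the lipase Locus_C876658, with 1.60 ± 0.36 (adjusted p = 0.045). The 4 post-caring and 4 control male libraries did not overlap at the first 4 of these and at Locus_18265, that is at 5 of the 13, against 3.09% of all loci. At Locus_C876658 the male libraries overlapped. At Locus_47519 the 4 male controls had 0.155, 0.0791, 3.10 and 2.66 CPM and the post-caring males 9.37, 8.51, 45.8 and 13.1. In both sexes the uniparental controls were above the biparental ones and the first uniparental post-caring library was the highest.

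At the 4 loci that fell in females, the male changes were nearer to 0. The kainate receptor changed by -0.11 ± 0.14 in males, Locus_C887996 by 0.09 ± 0.12, Locus_C907534 by -0.25 ± 0.10 and Locus_8821 by -0.43 ± 0.14, none past the threshold. At Locus_C887996 the male controls had 29.9, 30.1, 73.9 and 71.9 CPM and the post-caring males 34.1, 32.7, 70.9 and 76.5. The post-caring libraries of biparental males lay above their controls, and those of uniparental males overlapped with theirs. When the female change minus the male change was tested, 0 of 9648 loci passed the threshold in edgeR's quasi-likelihood test, with 345 at an unadjusted p-value under 0.05, and 0 passed in DESeq2 and in the likelihood ratio test. Without biparental female post-caring replicate 1 the count was 47, and without uniparental male control replicate 2 it was 1. Before adjustment, 6 of the 13 lay under 0.05, among them all 4 that fell, besides Locus_3616 and Locus_17017. At that limit 1.86% of all loci had a lower and 1.72% a higher change in females than in males. The female minus male difference was -0.83 at the kainate receptor Locus_C894382, -0.80 at Locus_C887996, -0.39 at Locus_C907534 and -0.58 at Locus_8821. The 13 were selected on the female change, which is a part of this difference. These values are therefore no test of a difference between the sexes. Of the 49 muscle contigs, 36 were below 0 in males, 9 of them with an unadjusted p-value under 0.05 (18.4%, against 9.33% of the caring gene set and 7.86% of all loci), and 11 had a lower change in females than in males at an unadjusted p-value under 0.05 (22.4%, against 4.48% of the caring gene set and 1.86% of all loci), with 0 having a higher one. Of the 10 yolk protein contigs, 9 had a higher change in females than in males at an unadjusted p-value under 0.05, and 0 a lower one. That was 90%, against 3.76% of the caring gene set and 1.72% of all loci. Across all 9648 loci the female and male changes had an r of 0.63 and a rho of 0.55, with no p-value since loci are not replicates.

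**Figure D4:**
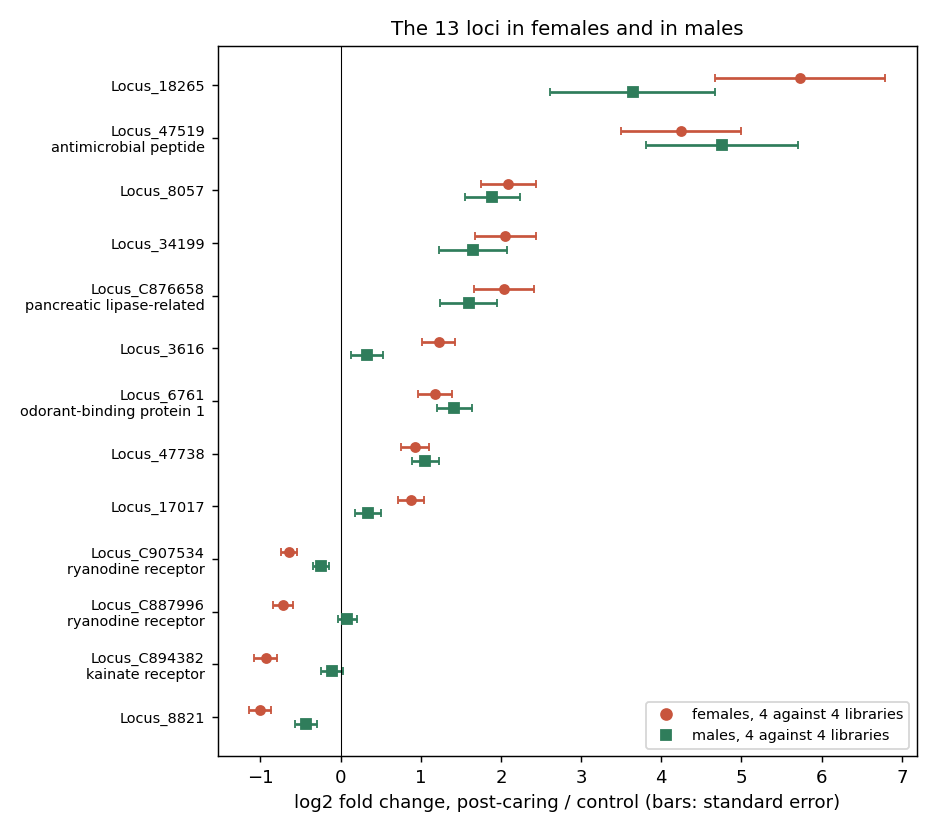
Log2 fold change of post-caring over control beetles at the 13 loci, in females (red circles) and males (green squares), each from 4 against 4 libraries, with bars of 1 standard error. The rises of Locus_47519, the odorant-binding protein and Locus_47738 were at least as large in males, and the 4 falls were nearer to 0 in males.

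Yolk proteins had lower values after care but did not pass the test in females. All 10 vitellogenin contigs had a change below 0, against 45% of the caring gene set, with a median log2 fold change of -1.14. None passed the threshold or had an unadjusted p-value under 0.05. The 10 contigs match 7 different accessions and are not independent, so their counts are not separate observations. In 9 of the 10 both post-caring libraries lay below both controls in both types, against 13.3% of the caring gene set, to which all belong, and 5.74% of all loci. Locus_C911252, the most abundant, had 170200 and 206400 CPM in biparental and 83730 and 100200 in uniparental controls, and 63950, 96170, 48690 and 57950 after care. Its change was -1.01 ± 0.70 (adjusted p = 0.495), and the biparental controls stood well above all other libraries. Locus_C909574, which matches vitellogenin 2 of the related burying beetle N. orbicollis, had 65880, 80780, 43330 and 51300 CPM in controls and 27620, 42970, 30880 and 30620 after care, without overlap (-0.84 ± 0.66, adjusted p = 0.56). Locus_C896214 had the lowest change, -1.28 ± 0.68, and Locus_C852695, a match to an ant vitellogenin-6, the highest, -0.07 ± 0.27. The other 6 contigs, Locus_C828738, Locus_C869378, Locus_C882026, Locus_C885328, Locus_C912104 and Locus_C912896, had changes of -1.15, -1.12, -1.20, -1.27, -1.18 and -1.003 on the log2 scale. Caring females had far less of the abundant contigs, 13870 to 33120 CPM of Locus_C911252, so that within each type the level after care lay between the control and the caring level. The median of the list was -1.60 in biparental and -0.61 in uniparental females. In males, at far lower levels, 9 of the 10 passed the threshold, all lower after care, where 91 of all 9648 loci passed. The male median was -3.88. Locus_C911252 had 223 and 82.1 CPM in biparental and 2406 and 61.6 in uniparental male controls. After care it had 15.7, 52.8, 49.5 and 24.2 CPM in males.

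Other proteins of the fat body and haemolymph had changes of both signs, none past the threshold. Arylphorin (Locus_3250), a storage protein of larvae and adults, had the lowest change of all loci tested, with 901, 154, 104 and 1641 CPM in controls and 23.2, 8.92, 27.3 and 61.4 after care. The groups did not overlap, but the controls differed more than 10-fold, and the change of -4.67 ± 1.01 missed the threshold (adjusted p = 0.0879). Its level in caring females was 0.709 to 7.18 CPM. Apolipophorin-III (Locus_C882058), a lipid carrier, had 1117 to 2036 CPM in controls and 1537 to 3222 after care (0.36 ± 0.18, adjusted p = 0.363). The takeout family, whose members bind small lipophilic molecules such as juvenile hormone, had 3 tested contigs and none past the threshold. Locus_56531 was the one with a sizeable value, with 7.93, 13.7, 2.39 and 2.06 CPM in controls and 0.124, 5.59, 0.68 and 0.356 after care (-2.00 ± 0.63, adjusted p = 0.181), and it was not detected in any caring female library, where 0 counts allow up to 3 counts per library. It was higher after care than during care (adjusted p = 0.0062). Locus_3293 changed by -0.56 ± 0.43 and Locus_C894552, at under 1 CPM in all 8 libraries, by 0.41 ± 0.87.

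Among 14 immune and antimicrobial contigs, which do not include Locus_47519, none passed the threshold, 3 were higher with an unadjusted p-value under 0.05 (21.4%, against 16.6% of the caring gene set and 7.04% of all loci) and 0 lower, and the median was 0.40. Without biparental post-caring replicate 2 the median was -0.0043. The peptidoglycan recognition protein Locus_C859016, of the kind that senses bacterial cell walls, had 0.954, 1.64, 1.91 and 3.59 CPM in controls and 3.65, 4.18, 4.76 and 3.69 after care. All post-caring values lay above all controls, and the change was 1.11 ± 0.27 (adjusted p = 0.113), beside 1.35 ± 0.28 in males (adjusted p = 0.036). Of the other peptidoglycan recognition contigs, Locus_25807 changed by 0.84 ± 0.29 (adjusted p = 0.198), Locus_62915 by 0.86 ± 0.68 and Locus_2397 by -0.19 ± 0.28, while Locus_20763 held 0 counts in all controls and 1 count in the post-caring libraries. Locus_39544, a match to an antibacterial peptide of the dung beetle Copris tripartitus, had the highest value of all loci, but on 0, 1, 10 and 19 counts in controls and 146, 30, 3059 and 22 after care. The highest library was again uniparental post-caring replicate 1, and the change of 6.52 ± 1.68 missed the threshold (adjusted p = 0.135). The lysozyme Locus_62643, an enzyme that cuts bacterial walls, changed by 0.27 ± 0.31, and the melanization-related contig Locus_C881922 by -0.53 ± 0.32.

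The thaumatin-like contig Locus_75085, a member of a family with antifungal proteins, had changes of opposite sign in the types. It had 132 and 103 CPM in biparental controls and 319 and 268 after care, but 212 and 582 CPM in uniparental controls and 405 and 173 after care. The biparental change was 1.32 ± 0.42 and the uniparental change -0.46 ± 0.41, and their difference missed the threshold (adjusted p = 0.715). After care it was higher than during care by 2.30 on the log2 scale (adjusted p = 0.00012). A second thaumatin-like contig, Locus_8246, had at most 2 counts in any of the 8 libraries.

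Serine proteases, which digest food proteins or drive immune cascades, had a change above 0 in 20 of 23 contigs. Of the caring gene set, 454 of 825 tested contigs were above 0, and 4865 of all 9648 loci. The median log2 fold change of the list was 1.02, against 0.11 for the caring gene set. Of the 23, 8 were higher with an unadjusted p-value under 0.05 (34.8%, against 16.6% of the caring gene set and 7.04% of all loci), and none passed the threshold. The smallest adjusted p-value was 0.119, at the chymotrypsin-like Locus_13425 (0.94), named after its value was seen. The abundant Locus_C855163, a trypsin-like contig with 820 to 2085 CPM in controls and 887 to 1571 after care, had the lowest change of the list at -0.24 ± 0.25. The highest value belonged to Locus_58683, which held 0 counts in all 4 controls and 2, 4, 0 and 1 counts after care, and so is at the limit of detection. Without biparental post-caring replicate 2 the median of the list was 0.13, with 15 of 27 contigs above 0. Protease inhibitors ranged from -1.10 ± 0.70 at Locus_13441 to 0.99 ± 0.37 at Locus_C851085 (adjusted p = 0.238), where the male rise of 1.65 ± 0.38 passed (adjusted p = 0.048).

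In the lists of metabolism only the lipase Locus_C876658 passed the threshold. Changes above 0 were found at 9 of 10 fatty acid synthesis, 14 of 23 P450 and 13 of 16 carbohydrate contigs. Of the caring gene set, 454 of 825 tested contigs were above 0. The lists of fatty acid synthesis (10 contigs), cytochrome P450 (23) and carbohydrate enzymes and transporters (16) had no contig past the threshold, medians of 0.49, 0.33 and 0.63, and 2, 4 and 4 contigs higher at an unadjusted p-value under 0.05, with 0 lower. These are 20%, 17.4% and 25% of the lists, against 16.6% of the caring gene set and 7.04% of all loci. With each library left out, the medians ranged from 0.14 (without biparental post-caring replicate 2) to 1.27 (without biparental control replicate 1), from 0.04 (without uniparental post-caring replicate 1) to 0.66 (without biparental control replicate 1) and from 0.48 to 0.68, and without biparental post-caring replicate 2 the P450 list had 4 contigs lower. The extremes were an elongase of very long chain fatty acids, Locus_C903914 (1.95 ± 0.87), a fatty acyl-CoA synthetase, Locus_C909540 (-0.29 ± 0.39), 2 contigs of the P450 list described as pheromone-degrading enzymes, Locus_C911422 (2.10 ± 0.73, adjusted p = 0.203) and Locus_76596 (-2.37 ± 1.28), and a brain chitinase, Locus_74494 (-1.38 ± 0.80). Locus_C911422 had 7.78, 5.58, 2.60 and 12.0 CPM in controls and 51.1, 63.4, 22.8 and 8.27 after care, so that only its biparental libraries were apart. The beta-glucosidase contig Locus_26800 held 1, 0, 0 and 0 counts in controls and 7, 13, 0 and 1 after care, beside 147 to 253 counts in the 4 caring libraries, and it was lower after care than during care by -6.19 (adjusted p = 1.5e-06). A second beta-glucosidase, Locus_17596, changed by 0.97 ± 0.50. Among 13 lipases and esterases the called lipase was the highest and the esterase Locus_40916 (-1.14 ± 0.48, adjusted p = 0.279) the lowest. Of the 13, 9 were above 0, but the summed level of the list was lower after care within both types. It was 4025 and 6622 CPM in biparental and 2238 and 2789 in uniparental controls. After care it was 1769 and 3496 CPM in biparental and 1315 and 1601 in uniparental females.

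Of 21 chemosensory contigs, 12 were above 0, near the share of the caring gene set (454 of 825). The odorant-binding protein Locus_6761 was the only one past the threshold. Locus_7343, a match to odorant binding protein 5 of a moth, was the lowest at -1.63 ± 0.60 (adjusted p = 0.231), with 22.2, 2.71, 20.2 and 41.6 CPM in controls and 1.73, 11.5, 7.70 and 4.71 after care. In caring females it had 237 to 681 CPM, and the fall from care to after care passed the threshold (-5.97, adjusted p = 2.4e-05). Locus_C863938, a pheromone-binding protein-related contig, was the highest at 2.32 ± 1.07. In the cuticle list (17 contigs, median -0.25, but 0.12 without biparental control replicate 1 and 0.50 without uniparental control replicate 2), the RR-1 cuticular protein Locus_61059 had 0.0530 to 0.294 CPM in controls and 0.311 to 1.35 after care, without overlap (2.04 ± 0.70, adjusted p = 0.2), and Locus_27354, the lowest, had 29 counts in 1 control library and at most 2 in the other 7.

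All 8 photoreceptor contigs were above 0, against 454 of 825 of the caring gene set, but their level differed widely between the biparental post-caring libraries. The median was 1.05, and 2 had an unadjusted p-value under 0.05 (25%, against 16.6% of the caring gene set and 7.04% of all loci). The sum of the 8 contigs was 3738 and 1088 CPM in biparental and 1350 and 2826 in uniparental controls, and 9672, 1090, 6275 and 3673 CPM after care. The biparental post-caring libraries were the lowest and the highest of the 4 after care, and without biparental post-caring replicate 1 the median of the list was -0.14. In every other fit with a library left out, all 8 contigs stayed above 0. In males, 7 of the 8 were higher after care at an unadjusted p-value under 0.05 in edgeR's quasi-likelihood test. That was 87.5%, against 15.6% of the caring gene set and 9.64% of all loci. The male median was 1.53, and 0 passed the adjusted threshold. The 2 contigs matching bride of sevenless, an eye signalling protein of Drosophila, spanned the list, from 0.78 ± 0.74 at Locus_7558 to 1.55 ± 0.53 at Locus_70256 (adjusted p = 0.2). Among 14 ribosomal and respiratory chain contigs the median was 0.33, with a range of 0.11 (without biparental post-caring replicate 2 or without biparental control replicate 1) to 0.58 (without biparental control replicate 2). Its lowest member was the mitochondrial ATP synthase subunit 6, Locus_C894694 (-0.30 ± 0.45). Its highest, Locus_74517, is a cytochrome b whose match is a dust mite, with 7, 0, 0 and 0 counts in controls and 0, 10, 21 and 68 after care (adjusted p = 0.28).

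**Figure D5:**
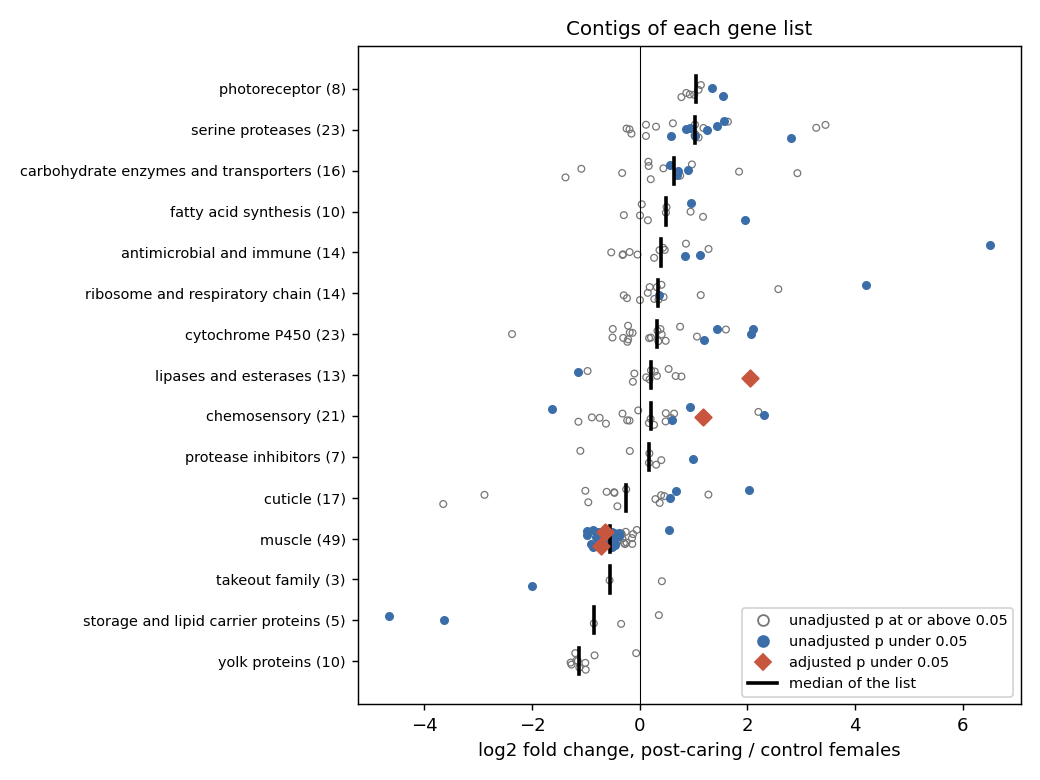
Log2 fold change of post-caring over control females for each contig of 15 gene lists, with the number of contigs in parentheses and a black bar at the median of each list. Muscle contigs cluster just below 0 with a median of -0.55, yolk proteins around -1.14 with open symbols only, and 4 symbols are red diamonds, the odorant-binding protein, the lipase and 2 ryanodine receptor contigs.

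The table of the caring gene set used here holds 866 contigs, selected by the study on libraries that include these controls, so their count is not independent evidence. Of the 825 tested, 10 passed the threshold, 6 higher and 4 lower, against 13 of all 9648 loci (0.135%). All 10 are among the 13. A further description of the set is that 137 were higher (16.6%) and 142 lower (17.2%) at an unadjusted p-value under 0.05, with a median log2 fold change of 0.11, against 7.04% and 8.23% and a median of 0.0023 for all loci.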

How the data were processed

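RNA was sequenced from 24 libraries of pooled beetle heads, of which 8 are described here. According to the methods and the submitters' processing notes, the authors trimmed paired-end reads with Trimmomatic 0.30, built a de novo assembly, retained contigs matching an arthropod sequence, assigned reads with Bowtie2 and RSEM, and deposited expected counts per locus, without normalization or pooling of replicates. RSEM divides reads among similar contigs, so values of contigs with one match depend on each other. Among the 8 libraries, 33.5% to 37.3% of the values were not whole in the biparental and 42.1% to 47.2% in the uniparental ones. The cause of this difference between the types was not tested. Samples were grouped by titles.

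Expected counts were rounded, scaled by TMM, and filtered by filterByExpr of edgeR 4.0.16 in R 4.3.3 (minimum count 10), which removed 1755 of 11403 loci. All 24 libraries entered one quasi-likelihood fit with 12 group means and 12 residual degrees of freedom, and contrasts averaged both parenting types. The study used the same terms in a negative binomial model with likelihood ratio tests, which is the first alternative below. The spread is shared by all groups, and p-values measure the spread between 2 pools per group. Adjustment was by Benjamini and Hochberg's method over 9648 loci, at 0.05. Fold changes use a prior count of 0.125, and the SE is the log2 fold change divided by the square root of F. Scripts were tested on simulated data.

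Names came from the study's table of its caring gene set. Fold changes and adjusted p-values of that table were not used. Named loci are the called loci with a gene name, the 2 largest rises and falls, the extremes of each gene list, and the yolk, takeout, beta-glucosidase, lysozyme, peptidoglycan recognition and thaumatin contigs; any others are marked. The members, lists and tests were chosen with earlier results of these data known. Alternatives were the likelihood ratio test, DESeq2 1.42.0, no filter, at least 10 counts in every library, RLE scaling, a replicate block, fewer libraries, a prior count of 2, each library left out, and, added after seeing the data, removal of yolk contigs. Contig sequences were not used here.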

Additional observations from a re-analysis of the deposited data

Results flagged for a closer look

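Of 72 groups of 4 libraries (36 loci in control and in post-caring females), 3 had a library whose gap to the others, as a share of the group's range, was above Dixon's critical value at the 95% level, and chance alone gives about 1 in 20. All 3 had a value of 1 because the other 3 libraries held 0 counts. In such a group any count in the remaining library gives a value of 1, so the rate of 1 in 20 does not apply to these 3. At the peptidoglycan recognition contig Locus_20763 biparental post-caring replicate 2 held 1 count, at the beta-glucosidase contig Locus_26800 biparental control replicate 1 held 1 count, and at the thaumatin-like contig Locus_8246 uniparental control replicate 1 held 1 count.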

How the results depend on the processing

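Counts of differentially expressed loci are given in the order both types, biparental, uniparental, uniparental minus biparental, and females minus males. They were 13, 0, 2, 0 and 0. The likelihood ratio test gave 167, 103, 94, 2 and 0, and DESeq2's Wald test 157, 118, 76, 1 and 0, where DESeq2 set an adjusted p-value at 9273 loci for both types but at 1044 for uniparental females. No filter, RLE scaling and removal of yolk contigs, an alternative chosen after seeing the data, changed none of the 5 counts, and a minimum of 10 counts in every library changed the first to 11. The 8 libraries alone gave 0 and the 12 female libraries 8. The ranges over the fits that each left out 1 library were 0 to 670, 0 to 939, 0 to 2, 0 to 163 and 0 to 47. The cause of these changes was not tested.

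Correlations of same-numbered deviations between the control and post-caring female groups lay between -0.08 and 0.18. Whether the replicate numbers pair the libraries cannot be settled from these values. The replicate block gave 25, 0, 3, 1 and 0 loci, with all 13 among the 25. No called locus changed sign under any alternative. Libraries of a group differed beyond counting noise, and depth limits what can be said of loci with few counts.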
